A study of Mus musculus with 24 samples.

Results

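Matrix metalloproteinases (MMPs) and their tissue inhibitors (TIMPs) were followed in bone marrow-derived macrophages (BMDMs) of mice through 10 genes of this family, chosen by name, out of 55421 genes counted. They were Mmp8, Mmp9, Mmp12, Mmp13, Mmp14, Mmp19 and Mmp25 on the protease side and Timp1, Timp2 and Timp3 on the inhibitor side. All 10 passed the filter on low counts and were tested. RNA was sequenced from 24 libraries in 4 groups of 6, which the study set up to ask how the aryl hydrocarbon receptor (AhR), a ligand-activated transcription factor, shapes gene expression in these cells with and without lipopolysaccharide (LPS). Wildtype cells came from C57/B6/J mice and AhR-deficient cells from AhR KO/KO mice (B6.129-Ahr tm1Bra/J), a germline deletion present in every cell of the culture. Mice of both sexes were used in the study, and neither sex nor age is labelled for single libraries. Cells of all 4 groups were grown from bone marrow with GM-CSF at 10 ng/ml and TGF-β at 2 ng/ml to resemble alveolar macrophages. Stimulation with LPS at 97 EU/ml began on day 6 and lasted 24 h, unstimulated cells received none, and the treatment protocol closes with the Ca2+ ionophore A23187 at 5 µM for 10 min, listed for every library.

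MMPs are zinc-dependent proteases that are made as inactive precursors, are switched on by cleavage outside or at the surface of the cell, and together can cut most proteins of the extracellular matrix as well as cytokines and other proteases. TIMPs bind to the active site of MMPs and block it, so that the amounts of both sides bear on how much matrix is degraded. In the lung, MMP12 is the elastase of macrophages, MMP8 and MMP9 are stored in the granules of neutrophils, and inflammatory stimuli raise the transcription of several family members.

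Each library held 45106052 to 76992663 counted fragments. Levels are given as CPM, the usual unit of counts relative to library size, here scaled by edgeR's TMM factors, with mean and SD over the 6 libraries of a group, and levels of different genes are compared only after division by exon length. A gene was called when edgeR's quasi-likelihood test gave an adjusted p (Benjamini-Hochberg over the 16593 genes tested) of at most 0.05 and the log2 fold change was at least 1 in either direction, while no minimum was set for the interaction of genotype and LPS. The libraries carry the numbers 17 to 40 and fall into 3 runs of 8 consecutive numbers with 2 libraries of each group in every run. Whether runs were batches is not given in the labels. Ahr itself fell in unstimulated AhR-deficient cells (log2 fold change −1.93, adjusted p = 0.00097) and was higher than in wildtype after LPS (log2 fold change 1.36, adjusted p = 0.011). Since all exons are counted together, Ahr counts do not tell the deleted part from the rest. In wildtype, 2 libraries (unstimulated replicate 34 and LPS replicate 38) lacked counts on Y-linked genes that all other libraries had. The 8 general macrophage markers, with Lyz2 the highest, each had a mean of at least 1 CPM in all groups. None of them was called for genotype at rest by edgeR, Fcgr1 was higher in AhR-deficient cells after LPS (482 against 1139 CPM, log2 fold change 1.24, adjusted p = 0.0031), and with LPS 3 rose in wildtype and 4 in AhR-deficient cells. The 8 alveolar macrophage markers summed to between 3527 and 10384 CPM in a library, most of it from Chil3 and Car4. With LPS 5 of the 8 fell in wildtype and 4 in AhR-deficient cells, among them Fabp4 to means of 2.77 and 2.21 CPM and Krt79 to 0.099 and 0.016 CPM, with libraries at 0. Car4 rose with LPS in both genotypes (874 to 1832 and 1236 to 3674 CPM) and was higher in AhR-deficient cells after LPS, as was Siglecf at rest (62.0 against 184 CPM), with no marker of this list called lower for genotype.

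Of the family members, Timp1 rose and Mmp8 fell in AhR-deficient BMDMs in both states, and without stimulation Mmp12 rose and Mmp25 fell as well. Without stimulation, 4 of the 10 genes were called, against 4.48% of all genes tested, with 2 of them higher (0.916% of all genes) and 2 lower (3.57%). The groups of libraries did not overlap for 5 of the 10, against 5.15% of all genes, namely Mmp8 and Mmp9 (AhR-deficient below wildtype) and Mmp12, Timp1 and Timp2 (above). After LPS, 2 of 10 were called, against 8.36% of all genes, with Timp1 higher (2.17% of all genes) and Mmp8 lower (6.19%), and for the same 2 genes the libraries did not overlap, against 7.11% of all genes. LPS changed more of them. In wildtype cells 6 of 10 were called, against 24.9% of all genes, with 5 higher (13.2% of all genes) and 1 lower (11.8%). In AhR-deficient cells 7 of 10 were called, against 30.8% of all genes, with 6 higher (15.1%) and 1 lower (15.7%). Libraries did not overlap for 3 genes in wildtype (22.4% of all genes) and for 5 in AhR-deficient cells (28.5%). The median log2 fold change of the 10 genes was 0.55 for genotype without stimulation, 0.19 after LPS, 1.81 for LPS in wildtype and 1.79 for LPS in AhR-deficient cells, beside medians of −0.01, −0.05, 0.03 and −0.03 over all genes tested. The 4 comparisons share libraries in pairs and are not independent of each other.

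**Figure D1:**
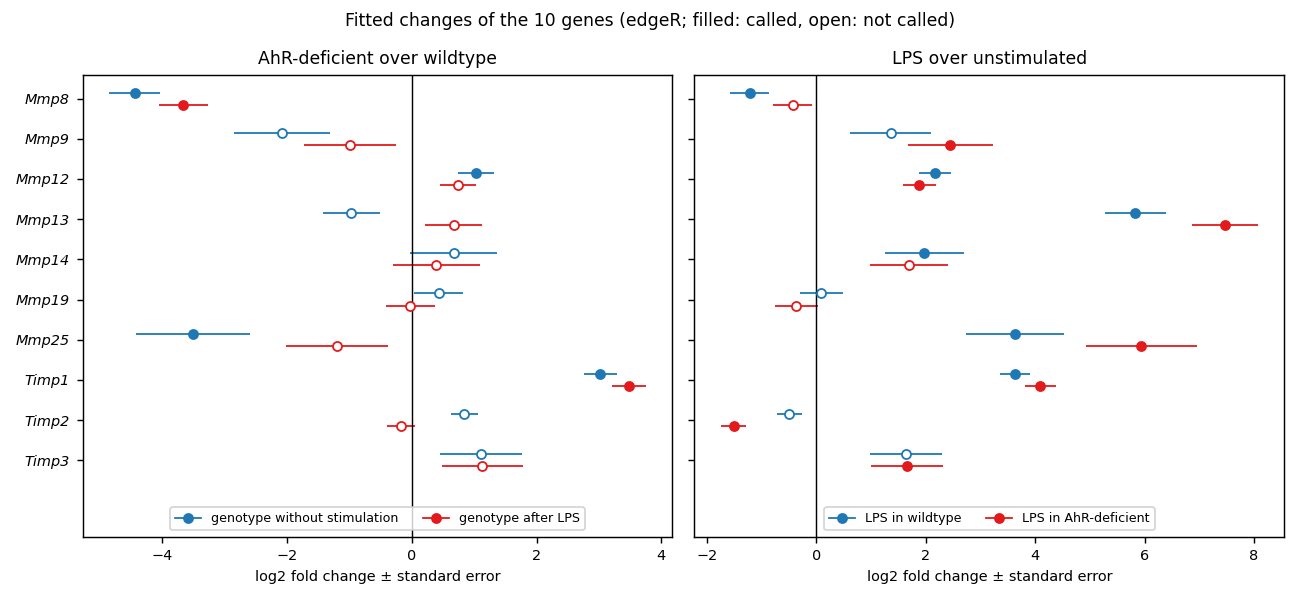
Log2 fold changes (x axis) of the 10 genes (y axis) with standard errors, on the left AhR-deficient over wildtype without stimulation and after LPS, on the right LPS over unstimulated in wildtype and AhR-deficient cells; filled points were called and open points were not. Timp1 sits right of 0 in all 4 comparisons, between 3.02 and 4.10, and Mmp8 sits at −4.44 and −3.66 in the genotype comparisons.

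Mmp12 (ENSMUSG00000049723, chromosome 9, 7344381 to 7369499 of mm10, plus strand), the macrophage elastase, was the most abundant member per exon length in every group. It took 0.380% of all counts in unstimulated wildtype libraries and 1.94% in LPS-stimulated AhR-deficient libraries on average. Without stimulation it had 1370 CPM in the lowest, 3854 CPM in the median and 4585 CPM in the highest wildtype library. In AhR-deficient libraries these values were 4921, 5682 and 9595 CPM, so that all 6 lay above all 6 wildtype libraries. The difference was 2.04-fold (log2 fold change 1.03, standard error 0.29, adjusted p = 0.032), which is just above the minimum for a call. It dropped below that minimum with total library size (0.95) and without unstimulated wildtype replicate 25 (0.87, adjusted p = 0.065) or 26 (0.92, adjusted p = 0.085), or without AhR-deficient replicate 19 (0.89, adjusted p = 0.083) or 35 (0.92, adjusted p = 0.082). Without both libraries that lack Y-linked counts it stayed above the minimum but missed the test (1.08, adjusted p = 0.051). After LPS the lowest, median and highest library had 10049, 13300 and 24495 CPM in wildtype and 19459, 21301 and 41985 CPM in AhR-deficient cells. The ranges of the genotypes overlapped there, and the change, 0.74 on the log2 scale (standard error 0.29, adjusted p = 0.10), was not called. Adjusted p lay between 0.0016 and 0.14 over the processing settings and between 0.032 and 0.30 with a library left out. The log2 fold change was positive but under the minimum in all of these fits, at most 0.80 and 0.94. Taken run by run, it was 0.65 to 0.80. LPS raised Mmp12 4.50-fold in wildtype (log2 fold change 2.17, adjusted p = 3e-06) and 3.69-fold in AhR-deficient cells (1.88, adjusted p = 1.3e-05), with no overlap of libraries in either genotype. The interaction was −0.28 (standard error 0.41, adjusted p = 0.97).

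The collagenase Mmp13 (ENSMUSG00000050578, chromosome 9, 7272514 to 7283331, plus strand) had the largest response to LPS of the 10 genes in both genotypes. Unstimulated wildtype libraries had 5.07 CPM at the lowest, 17.5 CPM at the median and 34.6 CPM at the highest, and unstimulated AhR-deficient libraries 5.94, 9.57 and 12.4 CPM. With LPS, wildtype libraries had 415, 774 and 2457 CPM and AhR-deficient libraries 609, 1359 and 3139 CPM. Every stimulated library lay above every unstimulated library of its genotype. The increase was 56.7-fold in wildtype (log2 fold change 5.83, standard error 0.56, adjusted p = 1.3e-08) and 177-fold in AhR-deficient cells (7.46, standard error 0.60, adjusted p = 4.3e-10). Between the genotypes the log2 fold change was −0.97 without stimulation (adjusted p = 0.34) and 0.67 after LPS (adjusted p = 0.45). The difference between the 2 responses was 1.64 (standard error 0.65, unadjusted p = 0.018, adjusted p = 0.21) and was not called, and without wildtype LPS replicate 37, the library with 2457 CPM, it was 2.11 with an adjusted p of 0.046.

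Mmp12 and Mmp13 both rose with LPS and lie in the same cluster of MMP genes, so their promoters are shown. The windows hold the 250 bases before a RefSeq start in GRCm38.p6, the assembly behind mm10, and 8 of the 10 genes have an entry in the table used, with Mmp9 and Mmp19 not among them. Capitals mark the AP-1 motif TGANTCA, which reads the same on both strands and is a binding element of the Fos and Jun proteins. The windows are chr9:7347124-7347373 (plus strand, the second of 2 Mmp12 starts in RefSeq, which lies inside the gene as annotated above) and chr9:7272264-7272513 (plus strand, Mmp13).
Mmp12: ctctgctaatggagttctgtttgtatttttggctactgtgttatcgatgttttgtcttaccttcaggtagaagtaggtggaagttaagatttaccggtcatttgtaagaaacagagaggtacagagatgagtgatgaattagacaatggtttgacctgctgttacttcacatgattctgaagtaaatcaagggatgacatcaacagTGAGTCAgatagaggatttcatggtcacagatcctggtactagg
Mmp13: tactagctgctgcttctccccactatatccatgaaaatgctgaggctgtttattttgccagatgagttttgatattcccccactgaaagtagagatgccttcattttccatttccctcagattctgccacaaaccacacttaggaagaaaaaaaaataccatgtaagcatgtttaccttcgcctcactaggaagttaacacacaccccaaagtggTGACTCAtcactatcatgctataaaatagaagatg
The motif begins at −44 in this Mmp12 window and at −35 in Mmp13, counted from the RefSeq start that each window precedes. The window of the first Mmp12 start, chr9:7344147-7344396, which lies at the start of the annotated gene, did not hold it. Of all 32851 windows of this length, 6.75% held it, and of the 8 matched members these 2 did, Mmp12 in 1 of its 2 windows. A match describes the letters in the window and was not tested for binding.

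Mmp8 (ENSMUSG00000005800, chromosome 9, 7558456 to 7568485, plus strand), the collagenase stored in neutrophil granules, had the largest decrease among the members. Unstimulated wildtype libraries had 209, 252 and 501 CPM at the lowest, median and highest, and AhR-deficient libraries 8.41, 14.9 and 20.7 CPM. This was 21.8-fold lower in AhR-deficient cells (log2 fold change −4.44, standard error 0.40, adjusted p = 1.2e-07). After LPS, wildtype libraries had 30.7, 140 and 263 CPM and AhR-deficient libraries 7.61, 10.1 and 15.5 CPM, a 12.7-fold lower level (−3.66, standard error 0.39, adjusted p = 7e-07). No AhR-deficient library reached the level of any wildtype library of the same state. Taken run by run on the log2(CPM + 0.5) scale, the difference was −4.81 to −4.07 in unstimulated and −3.98 to −2.32 in stimulated cells. LPS lowered Mmp8 2.32-fold in wildtype (−1.22, standard error 0.36, adjusted p = 0.0087), with overlapping libraries. Without wildtype LPS replicate 38, which had 30.7 CPM, this decrease was −0.99 and under the minimum for a call. In AhR-deficient cells the change was −0.43 (adjusted p = 0.35), and the interaction of 0.78 was not called (adjusted p = 0.62).

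Markers of neutrophils moved in the same direction as Mmp8 between the genotypes. Of 10 markers, 9 were tested, and 8 fell in unstimulated AhR-deficient cells and 6 after LPS, with none called higher in either. Their summed level was 1691 to 12716 CPM in unstimulated wildtype and 259 to 809 CPM in AhR-deficient libraries, and 728 to 8436 CPM against 141 to 1020 CPM after LPS. S100a8 and S100a9, which activated macrophages can also express, made up most of the sum. The granule proteins fell as well at rest, Ngp from a mean of 382 to 37.6 CPM (log2 fold change −3.34, adjusted p = 0.0003), Ltf from 204 to 18.6 CPM and Camp from 71.9 to 6.06 CPM, as did the chemokine receptor Cxcr2 from 13.9 to 3.95 CPM, each with no overlap of libraries. After LPS, Ngp had 199 and 20.1 CPM, Ltf 69.0 and 5.22 CPM and Cxcr2 3.70 and 0.686 CPM in wildtype and AhR-deficient cells, again without overlap. Mpo, a granule peroxidase whose transcript marks immature neutrophils, had a mean of at most 0.072 CPM in every group. Elane, another granule protein of this list, was present at a low level. It had means of 4.07 and 0.360 CPM at rest and of 0.934 and 0.006 CPM after LPS in wildtype and AhR-deficient cells. Retnlg had a mean of at most 0.670 CPM in a group. Among unstimulated wildtype libraries the highest sum was in replicate 33 (12716 CPM, with 221 CPM of Mmp8) and the highest Mmp8 level in replicate 18 (501 CPM, with the lowest sum, 1691 CPM). Among stimulated wildtype libraries the highest sum was in replicate 37 (8436 CPM, with 132 CPM of Mmp8) and the highest Mmp8 level in replicate 29 (263 CPM, with the second highest sum, 3617 CPM). With LPS, 4 of the 9 tested markers fell in wildtype (Cxcr2, Ly6g, Retnlg and Elane), where Mmp8 fell too, and none rose. In AhR-deficient cells, where the Mmp8 change was not called, 4 fell and none rose as well. In bulk RNA, fewer cells of a type and less RNA per cell cannot be told apart, and the part of neutrophils in the Mmp8 result was not tested. Mmp8 did not hold the AP-1 motif or the AhR core motif GCGTG in its promoter window.

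Markers of dendritic cells and of mast cells and basophils differed between the genotypes too. Of 7 dendritic cell markers tested, Cd207, Flt3, Ccr7 and Cd209a were lower and Ccl17 and Clec9a higher in unstimulated AhR-deficient cells, and Flt3, Cd207, Zbtb46 and Ccr7 were lower after LPS with none higher. Ccr7, the receptor with which dendritic cells migrate to lymph nodes, had means of 36.9 CPM in wildtype and 1.45 CPM in AhR-deficient cells at rest and of 1358 and 319 CPM after LPS, and LPS raised it in both genotypes. The sum of the 8 dendritic cell markers, most of it Ccl17, was 286 to 932 CPM in wildtype and 1951 to 5545 CPM in AhR-deficient libraries at rest, and 1359 to 6595 CPM against 2715 to 5814 CPM after LPS. Cd207 was at 0 in all stimulated AhR-deficient libraries and Cd209a in all stimulated wildtype libraries. Of 6 mast cell and basophil markers tested, 4 were lower in AhR-deficient cells at rest and 5 after LPS, with none higher. The sum of these 8 markers was 5.67 to 19.9 CPM in wildtype against 1.84 to 4.08 CPM at rest and 9.77 to 34.5 CPM against 3.03 to 8.80 CPM after LPS, and Mcpt4 was at 0 in all unstimulated libraries. Mmp8 and Mmp25 moved in the direction of the lower markers at rest, and the part of these cells in any member's result was not tested.

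The gelatinase Mmp9 (ENSMUSG00000017737, chromosome 2, 164940780 to 164955850, plus strand), the other granule protease of neutrophils, was among the least abundant members per length. Unstimulated wildtype libraries had 2.88, 4.55 and 5.31 CPM at the lowest, median and highest, and AhR-deficient libraries 0, 0.989 and 2.39 CPM. The libraries did not overlap, but the change, −2.08 on the log2 scale (standard error 0.77, adjusted p = 0.14), was not called by edgeR, whereas DESeq2 called it (adjusted p = 0.038), as did fits with the run as a factor (−2.47, adjusted p = 0.0078) or with each library's slope on gene length as a covariate (−2.497, adjusted p = 0.0018). LPS raised Mmp9 5.45-fold in AhR-deficient cells (log2 fold change 2.45, standard error 0.77, adjusted p = 0.012) to 1.76, 2.49 and 17.2 CPM. That increase rested on AhR-deficient LPS replicate 32, the library with 17.2 CPM, without which it was 1.66 (adjusted p = 0.071). In wildtype the change was 1.36 (standard error 0.74, adjusted p = 0.16), and stimulated libraries ranged widely, from 1.37 to 31.6 CPM. It was 0.69 (adjusted p = 0.51) without wildtype LPS replicate 29 and 0.57 (adjusted p = 0.35) with the length slope in the fit.

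Mmp25 (ENSMUSG00000023903, chromosome 17, 23628311 to 23645277, minus strand), a protease tied to the membrane by a lipid anchor and known from leukocytes, fell without AhR and rose with LPS. In unstimulated wildtype it had 0.953, 7.43 and 15.9 CPM at the lowest, median and highest library, and in AhR-deficient cells 0, 0.462 and 2.04 CPM. It was 11.4-fold lower (log2 fold change −3.51, standard error 0.91, adjusted p = 0.018), although the ranges overlapped and limma-voom did not call it (adjusted p = 0.097). Without AhR-deficient unstimulated replicate 27 the value was −4.30 (adjusted p = 0.0078). With LPS it reached 14.0, 96.9 and 192 CPM in wildtype, a 12.4-fold increase (3.63, standard error 0.90, adjusted p = 0.0024). In AhR-deficient cells it reached 8.002, 11.5 and 130 CPM, a 61.5-fold increase (5.94, standard error 1.01, adjusted p = 3.6e-05) from a level close to 0, and these libraries did not overlap. The size of this increase depended on single libraries, with a log2 fold change of 6.73 without AhR-deficient unstimulated replicate 27 and of 5.14 without AhR-deficient LPS replicate 31. Only the 2 AhR-deficient libraries of the second run stood high after LPS, with a mean of 104.6 CPM there against 9.96 and 10.3 CPM in the other runs. The difference between the genotypes after LPS (−1.20, standard error 0.82, adjusted p = 0.46) was not called, but it was with the run as a factor (−1.73, adjusted p = 0.041) or with the length slope in the fit (−1.48, adjusted p = 0.018). Without AhR-deficient LPS replicate 31 it was −2.004 (adjusted p = 0.15). The neutrophil, dendritic cell and mast cell markers given above that were lower in unstimulated AhR-deficient cells moved with Mmp25 between the genotypes. With LPS, which raised Mmp25, these lists did not move alike. Of the 6 mast cell and basophil markers tested 1 (Ms4a2) rose and none fell in wildtype, and none was called in AhR-deficient cells. The mean sum of all 8 went from 12.7 to 23.8 CPM in wildtype and from 2.74 to 4.73 CPM in AhR-deficient cells. Of the 9 neutrophil markers tested 4 fell and none rose in each genotype, and of the 7 dendritic cell markers tested 4 rose (Ccr7 among them) and 2 fell in wildtype and 1 (Ccr7) rose and 2 fell in AhR-deficient cells. Their part in the Mmp25 result was not tested.

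**Figure D2:**
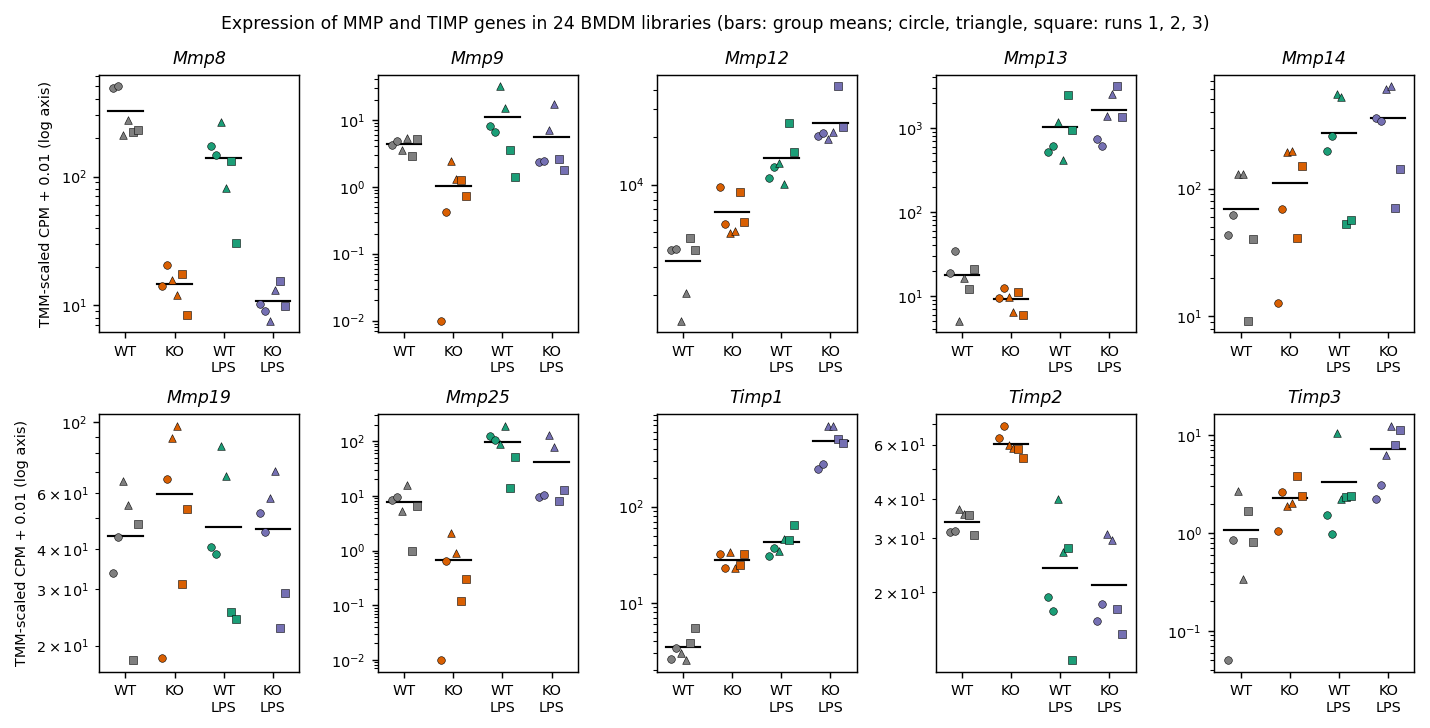
TMM-scaled CPM plus 0.01 on a log axis for each of the 10 genes in the 24 libraries, by group, with bars at the group means and symbols for the 3 runs of library numbers. All 6 AhR-deficient points of Mmp8 lie below and all 6 of Timp1 above the wildtype points of the same state, while Mmp14 and Mmp19 spread widely within every group, with the triangles of the second run on top.

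Mmp14 and Mmp19 spread widely within the groups, and their ranges overlapped in all 4 comparisons. Mmp14 (ENSMUSG00000000957, chromosome 14, 54431612 to 54445364, plus strand) is the membrane-type MMP that activates the precursors of other MMPs at the cell surface. It had 9.22, 52.7 and 131 CPM at the lowest, median and highest library in unstimulated wildtype and 12.7, 110 and 198 CPM in AhR-deficient cells. After LPS the values were 52.7, 226 and 547 CPM in wildtype and 70.2, 349 and 633 CPM in AhR-deficient cells. The increase with LPS was called in wildtype (3.93-fold, log2 fold change 1.97, standard error 0.72, adjusted p = 0.033) and missed the threshold in AhR-deficient cells (3.24-fold, 1.70, standard error 0.71, adjusted p = 0.057), with an interaction of −0.28 (adjusted p = 1.0). The wildtype call was lost with total library size, limma-voom, no filter or only the 12 libraries compared, and without any of 6 single libraries (wildtype unstimulated replicates 17, 18, 33 and 34 and wildtype LPS replicates 29 and 30), where adjusted p lay between 0.058 and 0.083 and the log2 fold change between 1.65 and 1.94. In the settings that kept the wildtype call, adjusted p went down to 8.2e-10. The increase in AhR-deficient cells was called with DESeq2 (adjusted p = 0.025), with the run as a factor (adjusted p = 0.018) and in the fit that includes the length slope (log2 fold change 1.86, adjusted p = 3.8e-11). It was also called in 7 of the 24 fits that left out a library (AhR-deficient unstimulated replicates 27 and 28, AhR-deficient LPS replicates 39 and 40, wildtype unstimulated replicate 33 and wildtype LPS replicates 37 and 38), with adjusted p between 0.033 and 0.05. Genotype did not give a call for Mmp14 in either state, with a log2 fold change of 0.67 at rest (adjusted p = 0.94) and of 0.39 after LPS (adjusted p = 0.87). These adjusted p depended on the processing settings, over which they went down to 0.014 at rest and 0.00016 after LPS. The log2 fold change stayed under the minimum for a call there, at most 0.97 at rest and 0.76 after LPS. Mmp19 (ENSMUSG00000025355, chromosome 10, 128790910 to 128800824, plus strand), a protease of basement membrane proteins, had group means between 43.9 and 59.3 CPM and log2 fold changes between −0.36 and 0.43 in the 4 comparisons, with adjusted p between 0.49 and 0.99. The values for genotype after LPS (−0.02) and for LPS in wildtype (0.09) changed sign with the processing.

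Markers of fibroblasts and other stromal cells, which are known sources of MMP14, MMP13 and TIMPs, were low in all libraries. The 10 markers summed to between 0.340 and 8.71 CPM in unstimulated and to between 4.54 and 34.7 CPM in LPS-stimulated libraries. Col1a1, the main collagen of fibroblasts, had a mean of at most 0.516 CPM in a group. After LPS most of the sum came from Thy1 in wildtype (10.1 CPM) and Dcn in AhR-deficient cells (11.9 CPM). Both differed between the genotypes there, Dcn being higher in AhR-deficient cells (0.822 against 11.9 CPM, log2 fold change 3.84, adjusted p = 2.1e-05) and called for the interaction (3.96, adjusted p = 0.002), and Thy1 lower (10.1 against 0.211 CPM, −5.58, adjusted p = 8.9e-05). Thy1 was lower at rest too, and with LPS 3 of the 10 markers rose in each genotype. Dcn thus moved in the direction of Timp1 after LPS, and the part of stromal cells in the results was not tested.

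On the inhibitor side, Timp1 (ENSMUSG00000001131, chromosome X, 20870166 to 20874735, plus strand), the TIMP most often induced in inflammation, changed with genotype and with LPS alike. Unstimulated wildtype libraries had 2.53, 3.17 and 5.41 CPM at the lowest, median and highest, and AhR-deficient libraries 22.9, 28.2 and 33.4 CPM. After LPS these were 30.7, 41.0 and 64.0 CPM in wildtype and 247, 478 and 698 CPM in AhR-deficient cells. No group overlapped with another in either genotype comparison or in either response to LPS. Unstimulated AhR-deficient cells had 8.12-fold more than wildtype (log2 fold change 3.02, standard error 0.27, adjusted p = 9.1e-08) and stimulated ones 11.1-fold more (3.48, standard error 0.27, adjusted p = 6.9e-09). LPS raised it 12.5-fold in wildtype (3.64, standard error 0.27, adjusted p = 2.9e-10) and 17.1-fold in AhR-deficient cells (4.10, standard error 0.28, adjusted p = 2.5e-11), and the interaction of 0.46 was not called (standard error 0.35, adjusted p = 0.75). Taken run by run on the log2(CPM + 0.5) scale, the genotype difference was 2.51 to 3.12 in unstimulated and 2.94 to 4.10 in stimulated cells.

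The promoter window of Timp1 held the core letters GCGTG of the element that AhR binds together with its partner ARNT, searched on both strands. It is shown because Timp1 had the largest increase with AhR deficiency among the members. The window is chrX:20869916-20870165 (plus strand, GRCm38.p6, RefSeq), and capitals mark the core.
Timp1: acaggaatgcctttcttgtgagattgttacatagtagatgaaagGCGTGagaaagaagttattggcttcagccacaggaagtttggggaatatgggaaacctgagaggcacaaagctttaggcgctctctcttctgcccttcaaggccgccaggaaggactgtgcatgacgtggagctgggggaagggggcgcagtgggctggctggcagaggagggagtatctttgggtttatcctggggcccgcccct
The core begins at −206 from the RefSeq start. These letters are frequent, with 28.2% of all windows holding them, and Mmp25, Timp2 and Timp3 held them as well, at −62, −113 and −69 from their RefSeq starts. Of the Timp2 window 203 of the 250 bases are exon of Timp2 in GENCODE, so that it is not upstream of the gene as annotated here, and of the Timp3 and Mmp25 windows 40 and 8 bases are exon. The 4 members with the core thus included Timp1, which rose, and Mmp25, which fell in unstimulated AhR-deficient cells.

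Timp2 (ENSMUSG00000017466, chromosome 11, 118301069 to 118355740, minus strand), the inhibitor that also takes part in activating the MMP2 precursor, was higher in unstimulated AhR-deficient cells and fell with LPS. It had 30.6, 33.6 and 37.3 CPM at the lowest, median and highest library in unstimulated wildtype and 54.4, 59.1 and 69.1 CPM in AhR-deficient cells, with no overlap. The difference of 1.80-fold (log2 fold change 0.84, standard error 0.22, adjusted p = 0.02) passed the test but not the minimum fold change. With LPS the values came to 12.1, 23.2 and 39.9 CPM in wildtype and 14.7, 17.999 and 30.9 CPM in AhR-deficient cells, and the genotypes no longer stood apart (−0.18, adjusted p = 0.78). The decrease with LPS was 2.85-fold in AhR-deficient cells (−1.51, standard error 0.23, adjusted p = 6.6e-06), without overlap, and 1.41-fold in wildtype (−0.49, standard error 0.22, adjusted p = 0.087). The difference between these responses was −1.02 (standard error 0.31, adjusted p = 0.071). It was called with total library size (−1.16, adjusted p = 0.045), without both libraries that lack Y-linked counts (adjusted p = 0.034), and without AhR-deficient LPS replicate 31 or 32 or wildtype LPS replicate 38 (adjusted p between 0.018 and 0.043). Timp2 shares its strand with Cep295nl, which lies within it, and fragments over both genes were left out by the authors' counting.

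Timp3 (ENSMUSG00000020044, chromosome 10, 86300372 to 86349506, plus strand), the inhibitor that binds to the matrix, was the least abundant member per length in 3 of the 4 groups. It had 0.040, 0.821 and 2.69 CPM at the lowest, median and highest library in unstimulated wildtype and 1.04, 2.19 and 3.78 CPM in AhR-deficient cells. After LPS it had 0.962, 2.26 and 10.4 CPM in wildtype and 2.24, 7.13 and 12.5 CPM in AhR-deficient cells. The increase with LPS was 3.16-fold in AhR-deficient cells (log2 fold change 1.66, standard error 0.66, adjusted p = 0.045) and 3.12-fold in wildtype (1.64, standard error 0.66, adjusted p = 0.055), and the interaction was 0.02 (adjusted p = 1.0). The value in wildtype rested on LPS replicate 29, the library with 10.4 CPM, without which it was 0.82 (adjusted p = 0.32). It was called with DESeq2 (adjusted p = 0.026), limma-voom (2.05, adjusted p = 0.038), the run as a factor (adjusted p = 0.023) or the length slope in the fit (adjusted p = 0.046), and without wildtype LPS replicate 21 or 22 or unstimulated replicate 25 (adjusted p between 0.016 and 0.048). The call in AhR-deficient cells was lost with total library size (1.13, adjusted p = 0.15), with no filter (adjusted p = 0.064) and without both libraries that lack Y-linked counts (adjusted p = 0.055). It was also lost in 11 of the 24 fits that left out a library, with adjusted p up to 0.098 (wildtype unstimulated replicates 18 and 34, AhR-deficient unstimulated replicates 19, 20, 27, 28 and 36 and AhR-deficient LPS replicates 31, 32, 39 and 40). Between the genotypes the log2 fold change was 1.11 at rest (adjusted p = 0.55) and 1.13 after LPS (adjusted p = 0.33), the latter being 1.95 (adjusted p = 0.05) and called without wildtype LPS replicate 29.

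None of the 10 genes was called for the interaction by edgeR, against 4.3% of all genes tested. At an unadjusted p of at most 0.05 there were 2 (Timp2 and Mmp13), against 13.5% of all genes. DESeq2 called 1, Timp2 (log2 fold change −1.01, adjusted p = 0.035), and limma-voom called 0. With the run as a factor Timp2 was called (−1.04, adjusted p = 0.014), and in the fit that includes the length slope Timp2 (−0.99, adjusted p = 0.013) and Mmp25 (2.45, adjusted p = 0.022).

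Compared per exon length, the order of the members differed between the groups, while Mmp12 stayed first. In TMM-scaled CPM per kb of exon, Mmp12 had a mean of 452 in wildtype and 920 in AhR-deficient cells at rest, and of 2033 and 3396 after LPS. It made up 71.7%, 90.9%, 78.02% and 73.3% of the per-length sum of the 10 genes. The place behind it went to Mmp8 in unstimulated wildtype (132), to Timp1 in unstimulated AhR-deficient cells (31.5) and to Mmp13 in both stimulated groups (381 in wildtype, 607 in AhR-deficient cells). In unstimulated AhR-deficient cells neighbours from Timp1 over Mmp14 (18.5) and Mmp19 down to Timp2 (15.5) did not differ beyond the larger of their SDs, nor did Mmp9 and Timp3. In LPS-stimulated AhR-deficient cells the same held for Mmp13 and Timp1 (539), for neighbours from Mmp19 (13.1) over Mmp25 and Timp2 down to Mmp8 (4.50), and for Mmp9 and Timp3. In unstimulated wildtype it held for each neighbouring pair from Mmp19 (12.4) over Mmp14, Timp2 and Mmp13 down to Timp1 (3.88) and for Mmp25 and Mmp9, and in LPS-stimulated wildtype for each from Mmp8 (56.9) over Timp1, Mmp14 and Mmp25 down to Mmp19 (13.2) and from Timp2 (6.14) over Mmp9 to Timp3.

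The per-length ratio of Mmp12 to Timp1 fell with AhR deficiency and with LPS, as Timp1 changed more than Mmp12. Its median was 121 in unstimulated wildtype (56.0 to 182 over the 6 libraries) and 28.4 in unstimulated AhR-deficient cells (18.1 to 44.9). After LPS it was 43.3 in wildtype (26.8 to 66.9) and 7.75 in AhR-deficient cells (3.42 to 10.3). The genotypes did not overlap in either state. The ratio of Mmp13 to Timp1 had medians of 1.72, 0.097, 5.55 and 0.988 in the same order of groups, and the genotypes did not overlap there either. These are ratios of transcript levels in the cells and carry no measure of secreted protein, activation or enzyme activity.

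**Figure D3:**
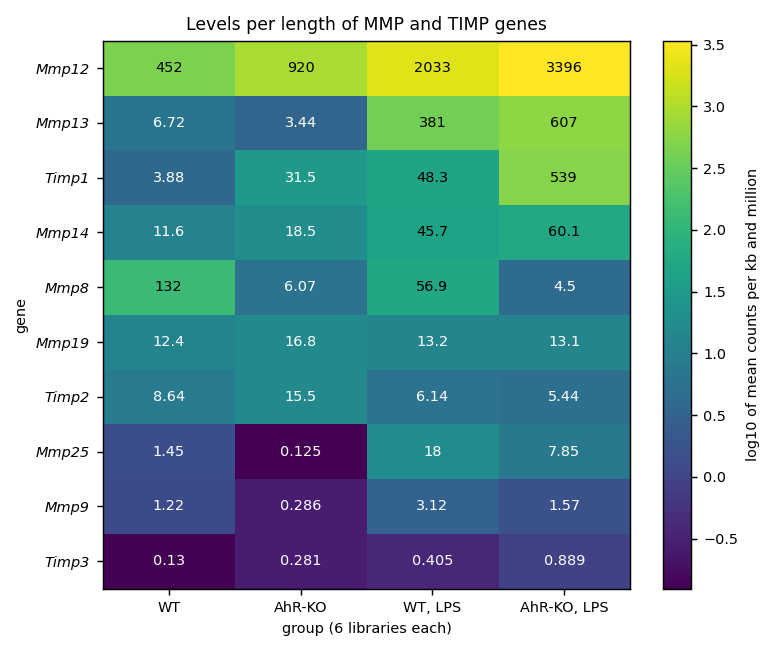
Mean TMM-scaled CPM per kb of exon of the 10 genes (rows) in the 4 groups of 6 libraries (columns), with colour on a log10 scale and the value in each cell. Mmp12 is highest in all columns, from 452 to 3396, and Timp1 goes from 3.88 in unstimulated wildtype to 539 in LPS-stimulated AhR-deficient cells.

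The spread within groups followed the runs for several members. After removal of the group means, 62.3% of the variance of Mmp14 in log2(CPM + 0.5) lay between the 3 runs, 61.5% of that of Mmp19, 54.2% of Mmp25, 50.2% of Mmp12 and 49.4% of Mmp9, but 18.6% of Mmp8 and 10.2% of Mmp13. The second run (replicates 25 to 32) stood above the group means for Mmp14, by 1.33 on the log2 scale, and below them for Mmp12, by −0.42. Libraries also differed in how their log2 CPM depended on gene length, with a mean slope over genes of 0.026, 0.252 and −0.101 in the 3 runs. Over the 24 libraries, and with group means removed, this slope had a Pearson r of 0.98 with Mmp14, 0.96 with Mmp19, 0.78 with Mmp25, 0.73 with Mmp9 and −0.82 with Mmp12, but of 0.13 with Mmp8 and −0.15 with Timp1. Among the 45 pairs of members, r within groups was highest for Mmp14 and Mmp19 (0.95) and lowest for Mmp12 and Mmp14 (−0.81), 2 pairs whose genes all followed the slope. Mmp12 and Mmp13, neighbours on chromosome 9, had an r of 0.69. These coefficients are descriptions over 24 libraries that share runs and depth, and the part of library preparation in them was not tested.

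**Figure D4:**
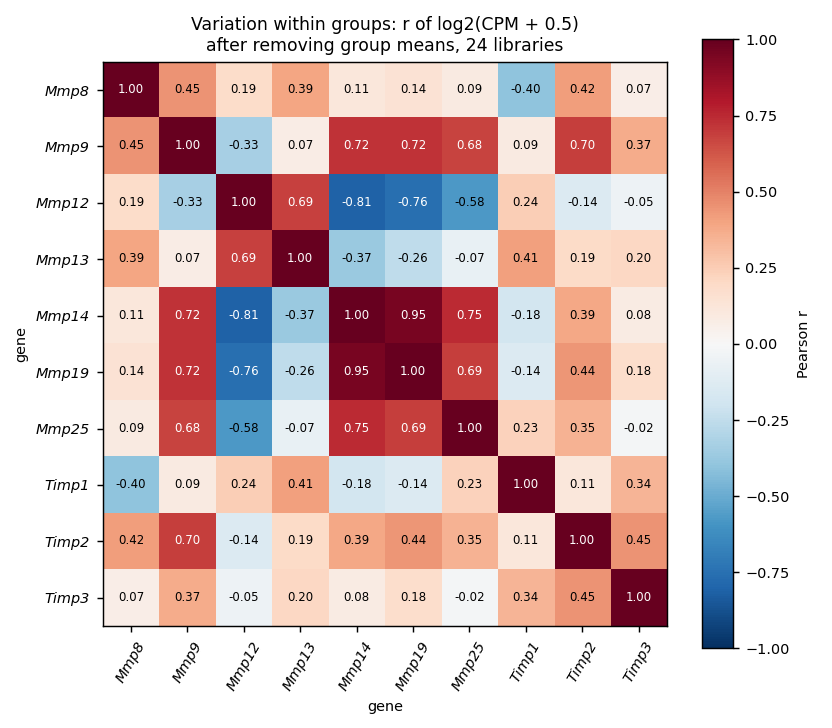
Pearson r between the 10 genes (both axes) over 24 libraries in log2(CPM + 0.5) after removal of the group means, with red for positive and blue for negative values. Mmp14, Mmp19, Mmp25 and Mmp9 form a block of positive values up to 0.95, Mmp12 is negative with Mmp14 (−0.81) and Mmp19 (−0.76), and Timp1 has no value beyond 0.41 in size.

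Over all 24 libraries, group differences included, the genes most like each member among 12711 candidates were named by Pearson r of log2(CPM + 0.5). For Mmp12 they were Dcstamp (0.97), a gene of cell fusion in the monocyte lineage, Prdx1 (0.97) and Gm21399 (0.97). Mmp8 ran closest to Gsdme (0.97), Sept1 (0.96) and Adgrg3 (0.95), and Timp1 to Cav1 (0.97), Gm33782 (0.95) and Tmeff1 (0.95). Mmp13 had Gstt4 (0.98), Erich2os (0.98) and Srgn (0.98), Mmp25 had Rap1gap2 (0.97), Antxr2 (0.97) and Cacnb3 (0.97), and Mmp14 had Anpep (0.99), Nfe2l1 (0.99) and Itga5 (0.99). For Mmp19 these were Map3k11 (0.97), Coro7 (0.96) and Sirpa (0.96), for Mmp9 Itgam (0.93), Dach1 (0.90) and Cdk6 (0.90), for Timp2 Chchd10 (0.93), Gusb (0.93) and Atp6v0d1 (0.92), and for Timp3 Dubr (0.84), Fcrlb (0.83) and Rhoq (0.82). Timp3, the least abundant inhibitor, thus had the weakest likeness to any gene.

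Apart from Mmp2, the rest of the family was sparse in these cells. Mmp2 had a mean of 14.4 CPM per kb of exon in LPS-stimulated wildtype, beside 13.2 for Mmp19 there. Of 17 other MMP and TIMP genes, 9 were not tested and reached at most 0.367 CPM in any library, and 8 were tested. The MMP cluster on chromosome 9, 427 kb from 7272514 to 7699585, holds 10 MMP genes, of which 6 were tested, and Mmp13, Mmp12 and Mmp8 were its abundant members. None of the 8 was called for genotype without stimulation. After LPS 2 of them fell in AhR-deficient cells, the gelatinase Mmp2, from 48.5 ± 22.4 to 8.41 ± 2.84 CPM (SD, n = 6; log2 fold change −2.53, adjusted p = 0.00066), and Mmp23, from 0.982 ± 0.433 to 0.077 ± 0.120 CPM (SD, n = 6; −3.59, adjusted p = 0.0021). The stromelysins Mmp3 and Mmp10 were called higher with LPS in both genotypes, but from 0 or nearly 0 to means of at most 0.422 CPM. Mmp17, at 0.195 CPM in unstimulated wildtype, fell with LPS in wildtype (−2.43, adjusted p = 0.046).

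Genes that activate or restrain MMPs changed in part. Of 12 tested, 2 fell in unstimulated AhR-deficient cells and none was called higher. These were Serpinb2, an inhibitor of plasminogen activators, from 2.32 ± 1.33 to 0.202 ± 0.152 CPM (SD, n = 6; log2 fold change −3.59, adjusted p = 0.00052), and Lcn2, the lipocalin that binds MMP9, from 71.5 ± 47.1 to 7.56 ± 3.37 CPM (SD, n = 6; −3.24, adjusted p = 0.00063). After LPS, 1 was higher and 2 lower in AhR-deficient cells. Plaur, the urokinase receptor, rose from 627 ± 97.3 to 1446 ± 291 CPM (SD, n = 6; 1.21, adjusted p = 1.1e-06), while Reck, a membrane-anchored MMP inhibitor, fell (−3.04, adjusted p = 0.0012) and Lcn2 fell (−1.65, adjusted p = 0.048). LPS raised 5 of the 12 in each genotype and lowered none, and the interaction was called for 2, Plaur (0.77, adjusted p = 0.018) and Serpinb2 (3.24, adjusted p = 0.02), each with the larger response in AhR-deficient cells.

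Among 14 other proteases and protease inhibitors of macrophages, 2 rose and 4 fell in unstimulated AhR-deficient cells. Ctsk, the collagen-degrading cathepsin of osteoclasts, rose from 145 ± 39.7 to 365 ± 120 CPM (SD, n = 6; log2 fold change 1.34, adjusted p = 8.8e-05) and the lysosomal protease Lgmn from 153 ± 26.9 to 322 ± 35.5 CPM (SD, n = 6; 1.08, adjusted p = 6.9e-05). Ctsg, a serine protease of neutrophil granules, fell (−3.66, adjusted p = 0.00019), as did Cst3, the secreted inhibitor of cathepsins (−1.80, adjusted p = 0.00046), and the other 2 were Elane and Prtn3, which are serine proteases of neutrophil granules too, Elane being also among the neutrophil markers above. After LPS, Ctsk stayed higher (1.15, adjusted p = 0.00027) and the same 4 genes were lower. Of 10 ADAM and ADAMTS proteases, some of which TIMP3 can inhibit, none was called for genotype in either state (edgeR), and with LPS 3 rose and 2 fell in each genotype, among them Adam8, which rose, and Adam10, which fell. Of 11 matrix substrates, Spp1, the secreted matrix protein osteopontin, was the only gene called for genotype, with 1772 ± 659 CPM in wildtype and 4677 ± 1746 CPM in AhR-deficient cells after LPS (SD, n = 6; 1.40, adjusted p = 0.0013).

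The subunits of AP-1 and NF-κB, factors known to act on MMP promoters, rose with LPS or were not called. In wildtype 5 of 12 rose and in AhR-deficient cells 7, with none lower. Junb rose from 85.1 ± 9.89 to 382 ± 36.3 CPM in wildtype and from 81.0 ± 12.02 to 514 ± 136 CPM in AhR-deficient cells (SD, n = 6; log2 fold change 2.17 with adjusted p = 9.9e-11 and 2.67 with adjusted p = 1.8e-12), and Relb, Rel and Nfkb2 were called in both genotypes. Between the genotypes, Fosb, at 0.143 CPM in wildtype, fell without stimulation (−4.42, adjusted p = 0.0091), and Relb fell after LPS (−1.06, adjusted p = 0.00092) with an interaction of −1.05 (adjusted p = 0.041). Osteoclast-associated genes differed between the genotypes as Mmp12 did at rest. Of 7 tested, Ctsk, Ocstamp and Dcstamp were higher in AhR-deficient cells in both states and none was lower, while Acp5, the phosphatase that marks osteoclasts, was not called. The summed level of the 8 genes was 1065 to 1600 CPM in unstimulated wildtype and 1720 to 2997 CPM in AhR-deficient libraries, Calcr, the calcitonin receptor, was at 0 in all unstimulated libraries, and their part in the Mmp12 result was not tested. After LPS the sum was 1419 to 2051 CPM in wildtype and 2159 to 3377 CPM in AhR-deficient libraries, where Mmp12 was not called.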

How the data were processed

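RNA of 24 BMDM libraries was enriched for poly(A) RNA, prepared strand-specifically and sequenced in pairs. The authors used GSNAP for alignment to mm10 and featureCounts 2.0.1 with the gene models of Ensembl release 98 for counting (reverse-stranded, mapping quality of at least 1, no fragments that lie on several genes). They deposited raw counts per gene and library, not normalized, and the exon length of each gene. Of the members, Timp2 loses fragments shared with Cep295nl, whereas Mmp12, Mmp19, Mmp25, Timp1 and Timp3 overlap genes on the opposite strand only. The submitters' processing notes list bcl2fastq 2.20.0 too. The table also held 92 spike-in rows with 1 count in all, which were left out.

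All 24 libraries entered 1 model in edgeR 4.0.16 (R 4.3.3) with 1 coefficient for each group, filterByExpr, scaling by TMM and the robust quasi-likelihood test (biological coefficient of variation 49.1%). Depth was 45106052 to 76992663 counts, so counting error was small beside this spread except for genes near 0 CPM. According to the paper each group holds 6 animals from 1 experiment. The labels do not name animals, so p-values measure the spread between these libraries, and unstimulated and stimulated libraries that came from the same animals would not have been treated as pairs. Groups came from the labels, and no library was left out.

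Named were the 10 members, Ahr, for each member the 3 genes with the highest r among tested genes at 1 CPM or more on average, and up to 4 called genes per list and comparison with the lowest adjusted p. Markers and other genes singled out beyond this rule (Lyz2, Chil3, Ltf, S100a9, Mpo, Col1a1, Thy1, Dcn, Calcr, Acp5, Elane, Prtn3, Adam10 and Ocstamp among them) were chosen after their values were seen. The members and lists were chosen with earlier results of these data known. Lists came from general knowledge, and 1 gene of the list on activation and control of MMPs is not reported here and was left out of its counts. The length slope is that of log2 CPM on log2 exon length over genes with a mean of at least 1 CPM. Promoter windows were searched in Python 3.11.15 (numpy 2.4.6, pandas 2.3.3), and plots used matplotlib 3.10.9. Symbols and positions came from GENCODE M21.

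As alternatives, the counts were scaled by DESeq2 size factors or by total library size, tested with DESeq2 1.42.0 or limma-voom (limma 3.58.1), not filtered or filtered at a mean of 1 CPM, and called without a minimum fold change. Fits on the 12 compared libraries, with the run or the length slope as a further term, and without each library in turn were also made. A fit without the 2 libraries that had no Y-linked counts was chosen after seeing the data. The fits were also run on simulated libraries that were independent, with the same spread for every gene and no differences by run or gene length. This simulation therefore does not test the fits under the run and length differences of these data.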

Additional observations from a re-analysis of the deposited data

Results flagged for a closer look

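In 40 groups of 6 libraries (the 10 genes in 4 groups), 4 had a highest library that stood apart from the rest by Dixon's criterion. For normal values chance alone gives about 1 in 20 with either the highest or the lowest library apart, and CPM need not be normal. Mmp9 had 17.2 CPM in AhR-deficient LPS replicate 32, with 7.06 CPM in the library next to it. Mmp12 had 41985 CPM in AhR-deficient LPS replicate 39, against 23057 CPM in the next. Mmp13 had 2457 CPM in wildtype LPS replicate 37, against 1172 CPM in the next. Timp3 had 10.4 CPM in wildtype LPS replicate 29, against 2.37 CPM in the next. The Mmp12 and Mmp13 libraries are from the third run and the Mmp9 and Timp3 libraries from the second.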

How the results depend on the processing

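Of 50 changes of single members (10 genes in 5 comparisons), 31 kept their direction and their side of the threshold in every fit tried, as did 1587 of all 1690 values. No paired analysis was made because the labels do not name animals. The replicate numbers (17 to 40, each used once) number the libraries and do not tell which of them share an animal. Whether unstimulated and stimulated libraries came from the same animals is not labelled, so the LPS comparisons may hold pairs that were not used. Over all genes, 713 were called for the interaction, but 1101 with DESeq2, 1201 with the run as a factor and 2721 with the length slope in the fit. Members called for it were 0, but 1 with total library size, DESeq2, the run as a factor or without the 2 libraries that lack Y-linked counts (the last chosen after seeing the data), 2 with the length slope, and 0 to 1 with each library left out. Without a minimum fold change, 2096 genes in place of 1387 were called for genotype after LPS and 6305 in place of 4137 for LPS in wildtype. Signs turned only for values close to 0 and never called, and the cause was not tested. Mmp19 for genotype after LPS (−0.02) was 0.0051 with DESeq2 size factors, 0.0049 with DESeq2, 0.018 with limma-voom, 0.035 with a mean of at least 1 CPM, 0.0053 with the 12 libraries compared, 0.041 with the run, 0.12 with the length slope and −0.19 to 0.23 with each library left out. Mmp19 for LPS in wildtype (0.09) was −0.26 with total library size, −0.011 with the run, −0.11 with the length slope and −0.16 to 0.24 with each library left out. The interaction of Timp3 (0.02) was −0.17 with total library size, −0.56 with limma-voom, −0.18 with the run and −0.52 to 0.83 with each library left out. The interaction of Mmp14 (−0.28) was 0.26 with the length slope and −0.56 to 0.046 with each library left out, and Timp2 for genotype after LPS (−0.18) lay between −0.32 and 0.032. With total library size the median log2 fold change over all genes became −0.26 for stimulated genotypes, −0.31 for the LPS response of wildtype, −0.52 for that of AhR-deficient cells and −0.18 for the interaction, and 236 of 1587 called genes were higher (360 of 1387 with TMM), 1622 of 4785 (2186 of 4137), 1730 of 6128 (2504 of 5105) and 252 of 802 (324 of 713). Depth limits only Mmp9, Mmp25 and Timp3, which had libraries at or near 0 counts.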
